A study of Homo sapiens with 6 samples.

Results

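The genes described here encode the subunits, activators and assembly factors of the proteasome, with NFE2L1 and DDI2, which set how much of it a cell makes. They were taken by symbol. The rows whose symbol starts with PSMA, PSMB, PSMC, PSMD, PSME, PSMF or PSMG, together with POMP, ADRM1, NFE2L1 and DDI2, gave 53 members among the 25445 rows of the count table. RNA-seq had been performed to look for genes behind the ferroptosis that 6j, a derivative of the alkaloid sophoridine, induced in liver cancer cells. MHCC-97H cells, an established human hepatocellular carcinoma line, received 10 μM 6j or solvent for 16 h, and 3 libraries of polyadenylated RNA were made for each group (called 6j and control, replicates 1 to 3). All 6 libraries came from this single line, and the labels do not say whether the replicates were separate cultures, so p-values measure the spread between these libraries, which may be technical.

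Library totals lay between 31533403 and 38018349 counts. Levels are given as CPM, the counts of a gene scaled to the total of its library after TMM normalization, and in bulk RNA a lower level cannot tell fewer expressing cells from less RNA per cell. The labelled liver origin had little trace in the hepatocyte genes. ALB, AFP, APOA1, APOB, SERPINA1 and TTR stayed at or below 0.262 CPM in every library, and HNF4A at or below 1.40 CPM, while the epithelial keratins KRT8 and KRT18 lay between 320.0 and 653 CPM. Both keratins were lower in every 6j library than in any control library. The log2 fold change in edgeR was −0.58 for KRT8 (adjusted p = 0.0211) and −0.32 for KRT18 (adjusted p = 0.0661). Whether this bears on the members was not tested. Of the genes of other cells, the leukocyte genes PTPRC and CD3E had no count, and the collagen gene COL1A1 lay between 203 and 275 CPM.

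The proteasome degrades proteins that carry chains of ubiquitin. Its core is a barrel of stacked rings, in which alpha subunits (PSMA genes) form the gate and beta subunits (PSMB genes) form the chamber, and PSMB5, PSMB6 and PSMB7 carry the proteolytic sites. A cap with ATPases (PSMC genes), which unfold substrates, and non-ATPases (PSMD genes and ADRM1), which bind ubiquitin or remove it, feeds the core. In the immunoproteasome, PSMB8, PSMB9 and PSMB10 replace the standard catalytic subunits, and PSME1 and PSME2 form another activator. The transcription factor NFE2L1 is held at the endoplasmic reticulum (ER) and, once released and cut by the protease DDI2, drives proteasome genes through antioxidant response elements (ARE).

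The RefSeq promoter table (GRCh38.p14) held 59 windows, from 250 bases before to 50 after a gene's start, for 47 of the 53 members, several genes having more than 1. PSMA7, PSMB1, PSMB6, PSMB7, PSMD4 and PSMG3 had none. The bases before the start are shown for 4 genes whose transcripts are described below, chosen after their values were seen: PSMB3, the core subunit with the largest called fall, PSMD3, a cap subunit that fell, PSMD9, an assembly factor that was not called, and NFE2L1, which rose. Capitals mark the ARE core TGACNNNGC and the CCAAT box on either strand, so that ATTGG is a CCAAT box on the other strand. All 4 genes are on the plus strand, at chr17:38752491-38752740 for PSMB3, chr17:39980557-39980806 for PSMD3, chr12:121888540-121888789 for PSMD9 and chr17:48048109-48048358 for NFE2L1.
PSMB3: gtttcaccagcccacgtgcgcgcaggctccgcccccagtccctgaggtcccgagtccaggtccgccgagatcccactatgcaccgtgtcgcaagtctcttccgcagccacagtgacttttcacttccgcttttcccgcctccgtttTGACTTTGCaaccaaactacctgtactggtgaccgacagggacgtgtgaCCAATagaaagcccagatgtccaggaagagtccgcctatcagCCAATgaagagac
PSMD3: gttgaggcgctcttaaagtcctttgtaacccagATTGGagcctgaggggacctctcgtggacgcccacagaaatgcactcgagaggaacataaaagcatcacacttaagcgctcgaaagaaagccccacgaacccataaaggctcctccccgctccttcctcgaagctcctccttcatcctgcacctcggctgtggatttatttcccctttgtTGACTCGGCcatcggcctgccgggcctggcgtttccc
PSMD9: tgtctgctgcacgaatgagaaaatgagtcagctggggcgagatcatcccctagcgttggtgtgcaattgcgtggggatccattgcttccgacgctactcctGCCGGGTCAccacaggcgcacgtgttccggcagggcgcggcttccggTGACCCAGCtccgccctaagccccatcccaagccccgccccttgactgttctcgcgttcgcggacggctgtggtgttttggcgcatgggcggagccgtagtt
NFE2L1: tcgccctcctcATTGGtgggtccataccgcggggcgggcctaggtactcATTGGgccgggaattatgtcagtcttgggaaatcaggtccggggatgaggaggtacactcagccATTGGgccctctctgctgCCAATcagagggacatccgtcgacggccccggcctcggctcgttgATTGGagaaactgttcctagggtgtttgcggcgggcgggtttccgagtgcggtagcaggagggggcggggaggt
The core began 104 bases before the start in PSMB3 and 37 bases before it in PSMD3, and PSMD9 held it at 149 and 102 bases. The window of PSMD3 held another core, on the other strand, after the start and so outside the bases shown. The window of NFE2L1 held no ARE core and 5 CCAAT boxes, and its other window held neither. PSMB3, PSMD3 and PSMD9 all held the core, which 16 of the 47 members with a window did, so they are not typical.

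Over all members, 16 of the 47 genes (34.0%) had the ARE core in at least 1 window, against 16.1% of the 27305 genes of the table. Counted by window, it was 17 of 59 (28.8%) against 13.3% of 35116, where both windows of ADRM1 hold the same match. The genes with the core were spread over the classes, with 1 of 7 alpha, 1 of 4 beta, 2 of 6 cap ATPase, 4 of 11 cap non-ATPase, 4 of 7 assembly and 3 of 6 immunoproteasome genes, 1 of 3 other activators and inhibitors and 0 of 2 regulators. No member window held the strict form TGACTCAGC, which was in 0.561% of all windows. The C/EBP-ATF element TGATGNAA was in 1 of the 59 windows, that of PSMF1 (1.69%, against 3.62% of all), and the CCAAT box in 25 (42.4%, against 34.6%). These shares are descriptions of letters and were not tested.

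After 6j, 21 of the 32 core and cap subunits tested fell by a modest amount, and NFE2L1 rose. Of the 53 members, 51 passed the filter on low counts, and 21 of these were called lower and 1 higher at an adjusted p under 0.05 in edgeR. Over all 15957 rows tested, 4.37% were called lower and 4.79% higher. The 21 that fell were all core or cap subunits, and the 1 that rose was NFE2L1. The sizes were small, so that past a 1.5-fold threshold only PSMB3 and NFE2L1 were called in edgeR, against 3.60% of all rows in either direction. The study's methods set the same fold threshold but with DESeq2 and a p under 0.05, not stated to be adjusted. DESeq2 with an adjusted p gave 4 members past 1.5-fold here. In 37 of the 51 members every 6j library lay below every control library, which held for 15.8% of all rows.

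The number of members called lower fell from 21 when 1 library was left out. It was 2 without control replicate 1 or without 6j replicate 2, 9 without control replicate 3 and 10 without control replicate 2. Without 6j replicate 3 it was 13, and without 6j replicate 1 it was 19. These fits hold fewer samples, and the share of all rows called in them was not counted. A general loss of calls therefore cannot be told from one particular to the members. PSMB3 and PSMD1 were called in all 6 of these fits. With the replicate number as a block, 37 members were called lower and 1 higher, where 13.9% and 13.1% of all rows were. DESeq2 called 28 lower, against 8.41% of the rows to which it gave an adjusted p. All 32 core and cap subunits tested had a log2 fold change below 0 in every alternative fit. All 32 were also lower in each of the 3 comparisons of libraries with the same number. In 31 of the 32 every 6j library lay below every control library, so these signs largely follow from that and are no separate support. The share of all rows with such signs was not counted. The median log2 difference of the 32 subunits was −0.28 for replicate 1, −0.40 for replicate 2 and −0.41 for replicate 3.

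**Figure D1:**
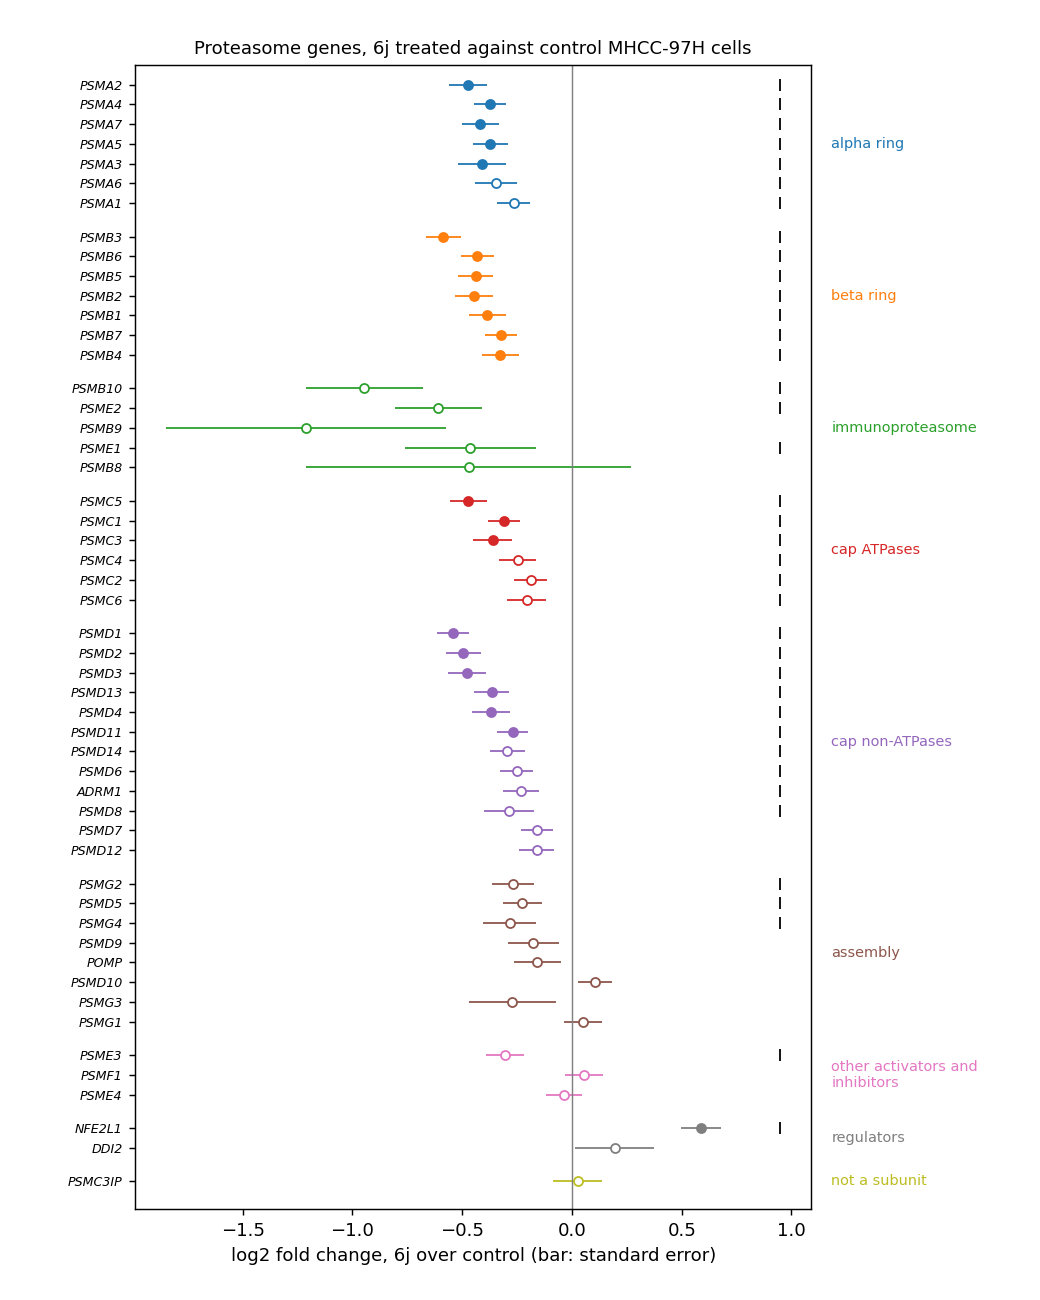
Log2 fold change (6j over control, x axis) of the 51 members tested, by class, with the standard error as a bar; filled points passed an adjusted p of 0.05 in edgeR without a block and ticks at the right mark those that passed with the replicate block. The 32 core and cap subunits lie between −0.59 and −0.16, 6 of the 8 assembly factors lie below 0, and NFE2L1 stands at 0.59.

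The core lost transcripts in both of its rings. All 7 beta subunits of the standard core were called lower, with log2 fold changes from −0.59 to −0.32 and a median of −0.43, and so were 5 of the 7 alpha subunits tested (median −0.37), where the median of all rows tested was 0.00. Summed over the beta ring, the level was 903, 889 and 951 CPM in the control libraries and 715, 660 and 693 CPM in the 6j libraries. Summed over the alpha ring it was 1196, 1231 and 1274 CPM and then 974, 952 and 919 CPM. In neither ring did the groups overlap.

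PSMB5, which carries the chymotrypsin-like site and is the target of bortezomib, was at 154, 152 and 159 CPM in control and 120, 106 and 116 CPM in 6j treated cells (GRCh38 chromosome 14, 23016543 to 23035230). All 6j libraries were below all control libraries, so that PSMB5 was 26.2% lower (log2 fold change −0.44, SE 0.08, adjusted p = 0.0133). PSMB6, the caspase-like subunit (chromosome 17, 4796144 to 4798503), was at 105, 107 and 113 CPM and then at 78.3, 80.5 and 82.0 CPM. Its fall of 25.8% had nearly the same size (log2 fold change −0.43, SE 0.07, adjusted p = 0.0117). PSMB7, the trypsin-like subunit (chromosome 9, 124353466 to 124415444), was at 121, 123 and 122 CPM and then at 101, 94.2 and 96.8 CPM (log2 fold change −0.32, SE 0.07, adjusted p = 0.0283). For none of the 3 catalytic subunits did the groups overlap. The calls of PSMB5 and PSMB6 were lost without control replicate 1 or without 6j replicate 2, and that of PSMB7 held in 1 of the 6 fits that left out a library.

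PSMB3, a structural beta subunit without a proteolytic site (chromosome 17, 38752736 to 38764231), had the largest called fall of the members. Its levels of 96.6, 95.1 and 97.8 CPM in control were close together, and those of 69.5, 61.4 and 62.0 CPM with 6j lay well below them. PSMB3 was 33.4% lower (log2 fold change −0.59, SE 0.08, adjusted p = 0.00637), and its log2 value ranged from −0.64 to −0.55 when each library was left out. PSMB2 fell by 0.45 on the log2 scale, its mean going from 143 ± 5.69 to 105 ± 8.87 CPM (± is the SD, n = 3). PSMB1 (−0.39) and PSMB4 (−0.33) completed the ring. PSMB4 was the most weakly supported of the 7, since it was called in none of the fits without a library (adjusted p from 0.0572 to 0.164).

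In the alpha ring, PSMA2 had the largest fall, from 161, 175 and 179 CPM to 113, 127 and 131 CPM (chromosome 7, 42916857 to 42932223, log2 fold change −0.47, SE 0.09, adjusted p = 0.0141). It shares exons with AC010132.3 on its own strand and with MRPL32 on the other, and how reads of such overlaps were assigned is not given in the sources used here. PSMA7 (−0.42), PSMA4 (−0.37), PSMA5 (−0.37) and PSMA3 (−0.41) were called as well, PSMA3 only just (adjusted p = 0.0495) and in none of the fits that left out a library. PSMA6 (−0.34, adjusted p = 0.0537) and PSMA1 (−0.26, adjusted p = 0.0589) missed the threshold and passed it with the replicate block (adjusted p = 0.007 and 0.0107). The groups did not overlap for any of the 7. PSMA8, the testis form of an alpha subunit, had 0 counts in every library, where 3 counts correspond to at most 0.0952 CPM.

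**Figure D2:**
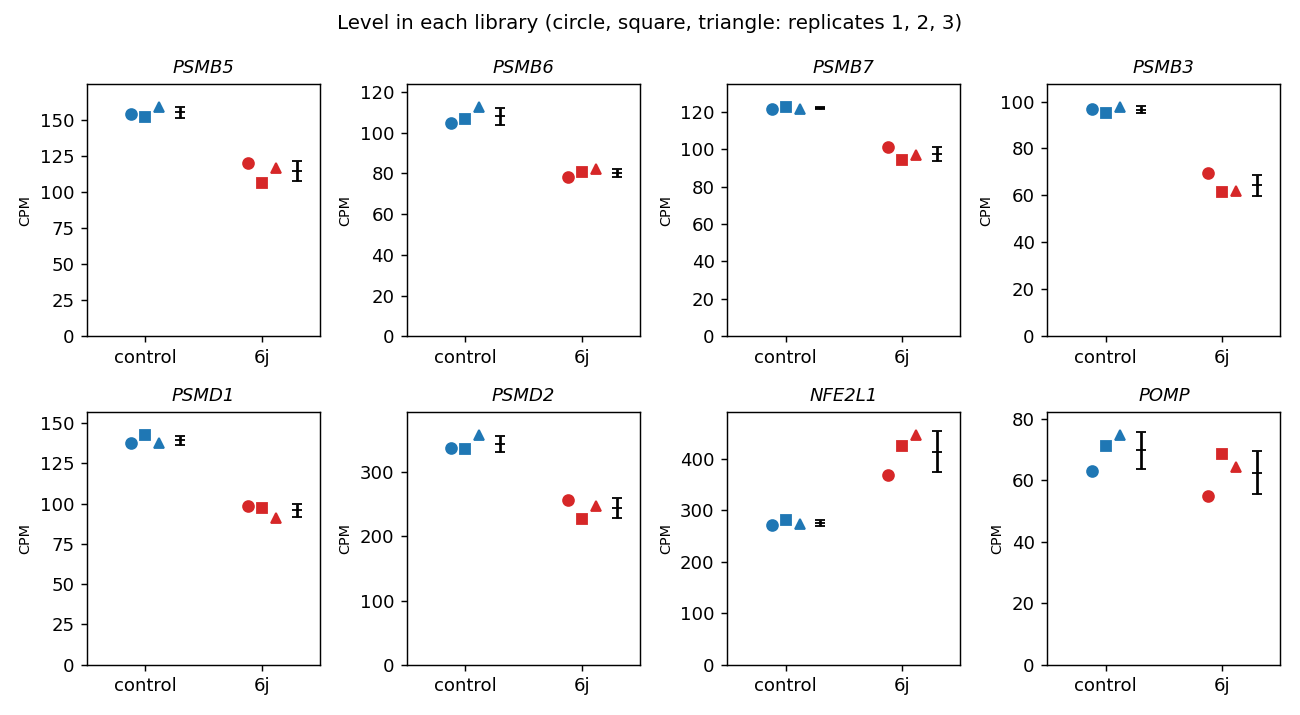
Level (CPM, y axis from 0) of 8 members in each control (blue) and 6j (red) library, with the mean and SD of each group (n = 3) beside the points. PSMB5, PSMB6, PSMB7, PSMB3, PSMD1 and PSMD2 were lower in all 6j libraries and NFE2L1 was higher in all of them, whereas the groups of POMP overlapped.

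In the cap, 9 of 18 members were called lower, where 12 of the 14 core subunits tested were. All 18 had a log2 fold change below 0, from −0.54 to −0.16, and whether core and cap differ was not tested. Among the non-ATPases, 6 of 12 were called. PSMD1, a large scaffold subunit (chromosome 2, 231056864 to 231172827), was at 138, 143 and 138 CPM in control and at 98.5, 97.5 and 91.4 CPM with 6j. This was the largest fall of the cap (log2 fold change −0.54, SE 0.07, adjusted p = 0.00649), and it was called in each of the 6 fits without a library. PSMD2, the other large scaffold and the member with the most counts of the cap (chromosome 3, 184298709 to 184309054), went from 338, 336 and 358 CPM to 257, 228 and 248 CPM, with no overlap (log2 fold change −0.49, SE 0.08, adjusted p = 0.0113). PSMD3, a subunit of the lid of the cap (chromosome 17, 39980797 to 39997960), was at 189, 166 and 190 CPM and then at 139, 123 and 130 CPM (log2 fold change −0.48, adjusted p = 0.014).

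The ubiquitin receptor PSMD4 (−0.37), the lid subunits PSMD13 (−0.37) and PSMD11 (−0.27) were also called. The deubiquitinase of the lid, PSMD14, was at 75.9 ± 3.55 CPM in control and 61.9 ± 3.50 CPM with 6j (SD, n = 3 each), just outside the threshold (log2 fold change −0.29, adjusted p = 0.0547), and passed with the replicate block (adjusted p = 0.00655). ADRM1, another ubiquitin receptor, had −0.23 (adjusted p = 0.109, and 0.0189 with the block), and PSMD6 and PSMD8 were likewise not called (adjusted p = 0.0677 and 0.147) and were called with the block (adjusted p = 0.0121 and 0.00945). PSMD12 and PSMD7 had the smallest values of the cap, at −0.16 each, and passed neither with nor without the block (adjusted p of PSMD12 0.243 and 0.102).

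Of the 6 ATPases, PSMC5, PSMC1 and PSMC3 were called. PSMC5 (chromosome 17, 63827152 to 63832026) was at 138, 145 and 138 CPM and then at 110, 101 and 93.0 CPM, with no overlap (log2 fold change −0.47, SE 0.08, adjusted p = 0.0131). PSMC1 went from 135, 139.7 and 142 CPM to 111, 112 and 114 CPM (log2 fold change −0.31) and PSMC3 from 135 ± 8.20 to 105 ± 8.40 CPM (SD, n = 3 each, log2 fold change −0.36). PSMC4 (−0.25), PSMC2 (−0.19) and PSMC6 (−0.21) were not called, with adjusted p of 0.102, 0.154 and 0.18, and were called with the block (0.0181, 0.0433 and 0.0208). In none of the 6 did the groups overlap. Exons of 15 members, among them PSMC5, PSMC1 and PSMD1, overlap a gene on the other strand, and the strand setting of the counting is not given in the sources used here, so reads of such partners cannot be told apart.

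The assembly factors had no call without the block. These chaperones dock subunits in order and leave the finished particle. None of the 8 was called, near the 4.37% of all rows called lower. The core and cap had 21 of 32, and the difference was not tested. Of the 8 factors, 6 had a log2 fold change below 0 (median −0.20). For 3 factors every 6j library lay below every control library (15.8% of all rows). With the block 3 factors were called lower (13.9% of all rows). POMP, which brings the beta subunits together, was at 63.1, 71.2 and 74.7 CPM in control and 54.7, 68.5 and 64.1 CPM with 6j, and the groups overlapped (log2 fold change −0.16, SE 0.11, adjusted p = 0.394). PSMG1, which guides the alpha ring, stayed at 51.2 ± 3.75 and 53.1 ± 1.68 CPM (SD, n = 3 each), with an adjusted p of 0.755. Its partner PSMG2 was at 46.2 ± 0.440 and 38.3 ± 3.84 CPM (SD, n = 3 each), with no overlap, and passed with the block and not without it (log2 fold change −0.27, adjusted p = 0.116, and 0.026 with the block).

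PSMD5, PSMD9 and PSMD10 help to build the base of the cap. PSMD10, also known as gankyrin, was higher with 6j in each comparison of same-numbered libraries, by 0.20, 0.02 and 0.10 on the log2 scale, but the groups overlapped and it was not called (log2 fold change 0.11, adjusted p = 0.43). PSMD5 (−0.23) and PSMG4 (−0.28) passed with the block and not without it (adjusted p = 0.0225 and 0.0463). PSMD9 (−0.18) and PSMG3 (−0.27) passed in neither fit. The summed level of the 8 factors was 418, 415 and 430 CPM in control and 393, 393 and 379 CPM with 6j, a ratio of 0.922, where the ratio was 0.778 for the core and cap subunits.

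The genes of the immunoproteasome, which interferons induce in most cells, varied with the replicate number in both groups. In every one of the 5 genes tested, replicate 3 was the lowest library of its group. PSMB10 was at 17.6, 19.8 and 11.7 CPM in control replicates 1, 2 and 3 and at 10.6, 9.20 and 5.65 CPM with 6j. All 3 6j libraries were below the control libraries, yet the gene missed the threshold (log2 fold change −0.95, SE 0.27, adjusted p = 0.0617). With the replicate block it was called (−0.96, adjusted p = 0.000255). PSMB10 shares exons with AC040162.1 on its own strand.

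For both activator genes, replicate 2 was the highest library of each group. PSME2 went from 83.5, 97.0 and 67.2 CPM to 54.4, 67.1 and 40.9 CPM, and fell by a similar amount for each number, 0.62, 0.53 and 0.72 on the log2 scale. It was not called without the block (log2 fold change −0.61, adjusted p = 0.105) and was called with it (adjusted p = 5.52e-05). PSME1 was at 93.8, 118 and 62.1 CPM and then 72.5, 79.2 and 47.1 CPM, with overlapping groups, and the block moved its adjusted p from 0.398 to 0.00046. PSMB8 (5.60, 10.7 and 2.41 CPM, then 5.39, 6.69 and 1.40 CPM) and PSMB9 (4.03, 7.99 and 1.55 CPM, then 3.12, 1.69 and 1.02 CPM) were called in neither fit (adjusted p with the block 0.0915 and 0.0691). PSMB8 and PSMB9 overlap each other's exons on opposite strands. The thymus form PSMB11 had 2 counts in control replicate 1 and none elsewhere and was not tested.

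The immunoproteasome catalytic genes were minor beside their standard counterparts in these cells. Per kilobase of the principal GENCODE transcript, PSMB8 reached 1.75% to 8.13% of the level of PSMB5 in the control libraries and 1.38% to 7.24% in the 6j libraries. PSMB9 reached 1.499% to 8.15% and 1.35% to 4.35% of PSMB6. PSMB10 reached 7.74% to 13.004% of PSMB7 in the control libraries and 4.69% to 8.43% in the 6j libraries. The ranges of the groups overlapped for all 3 pairs.

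**Figure D3:**
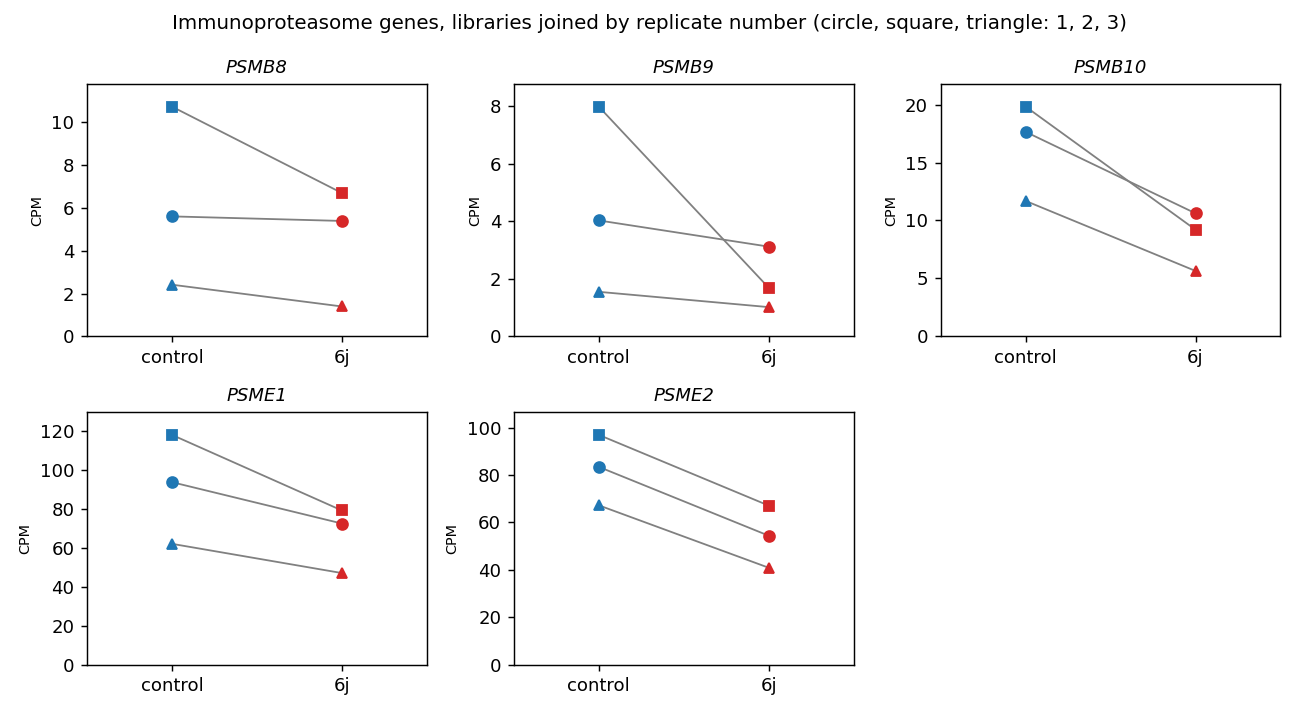
Level (CPM, y axis from 0) of the 5 immunoproteasome genes tested, with lines joining control and 6j libraries of the same replicate number. In every gene each line falls, with log2 differences from −0.06 for PSMB8 in replicate 1 to −2.20 for PSMB9 in replicate 2, and the triangles of replicate 3 are lowest in both groups.

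Among the other activators and the inhibitor, none of 3 was called. PSME3, a nuclear activator, was at 218, 206 and 211 CPM in control and 189, 165 and 160 CPM with 6j without overlap, just outside the threshold (log2 fold change −0.30, adjusted p = 0.0579), and passed with the block (adjusted p = 0.00399) and in DESeq2 (adjusted p = 0.0157). PSME4, which caps the core in the nucleus and testis, had 127 ± 9.67 and 124 ± 1.57 CPM (SD, n = 3 each, adjusted p = 0.82). PSMF1, which inhibits the core, had 80.0 ± 4.10 and 83.1 ± 6.03 CPM (SD, n = 3 each, adjusted p = 0.739). PSMC3IP, which the symbol rule takes in although it encodes a recombination factor and no subunit, had 32.9 ± 1.18 and 33.5 ± 4.26 CPM (SD, n = 3 each, adjusted p = 0.914).

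NFE2L1, the transcription factor of the proteasome genes, moved the opposite way. It was at 271, 281 and 273 CPM in control and at 369, 424 and 446 CPM with 6j (chromosome 17, 48048329 to 48061487). The control libraries were close together and all 6j libraries lay above them, and the rise stood just past the fold threshold (log2 fold change 0.59, SE 0.09, adjusted p = 0.00928). The call was lost without control replicate 1 (adjusted p = 0.0594) or without 6j replicate 2 (adjusted p = 0.0519) and held with the replicate block (adjusted p = 8.95e-05). DDI2, the protease that cuts NFE2L1 (chromosome 1, 15617500 to 15669044), was at 102, 82.8 and 115 CPM and then 95.8, 103 and 145 CPM. The groups overlapped (log2 fold change 0.20, adjusted p = 0.549), and without 6j replicate 3 the value was −0.0095. DDI2 shares exons with RSC1A1.

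A list of 34 other genes of ubiquitin and of the handling of NFE2L1 gave 7 calls, 5 higher and 2 lower, with a median log2 fold change of 0.01. Over all rows 4.79% were called higher and 4.37% lower, so the share of the list called lower was near that of all rows. With the block, 6 were called higher and 5 lower, shares near the 13.1% and 13.9% of all rows. All 5 that rose belonged to the 10 genes that handle NFE2L1 or bind DNA with it. SEL1L and SYVN1, which form the ER ubiquitin ligase that turns NFE2L1 over, rose from 139 ± 16.8 to 216 ± 27.3 CPM (log2 fold change 0.64, adjusted p = 0.0147) and from 81.4 ± 5.03 to 104 ± 10.0 CPM (0.35, adjusted p = 0.0476; SD, n = 3 each). The small MAF genes encode its dimer partners, and all 3 rose. MAFF was at 12.1, 18.3 and 13.3 CPM and then 24.7, 34.4 and 37.8 CPM (log2 fold change 1.15, SE 0.20, adjusted p = 0.0135). MAFG rose by 0.70 (adjusted p = 0.00623) and MAFK by 0.52 (adjusted p = 0.0377). NFE2L2, the relative of NFE2L1 known as NRF2, had 0.17 (adjusted p = 0.221), and NGLY1, which removes the sugars of NFE2L1, had 0.22 (adjusted p = 0.228). The SEL1L, SYVN1 and small MAF genes also answer to other stress pathways, whose part in these values was not tested.

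The 2 genes of the list that fell were VCP and SEM1. VCP, the unfoldase that pulls ubiquitinated proteins from the ER, went from 525, 490 and 479 CPM to 410, 347 and 335 CPM (log2 fold change −0.45, adjusted p = 0.0247). SEM1, a small subunit of the cap that the symbol rule does not take in, went from 44.6, 45.5 and 51.0 CPM to 30.9, 33.7 and 38.6 CPM (log2 fold change −0.45, adjusted p = 0.0348). Both values lie within the range of the cap subunits. The deubiquitinases that dock on the cap had values near 0, with 132 ± 10.0 and 133 ± 2.56 CPM for USP14 (adjusted p = 0.942) and 144 ± 5.33 and 145 ± 5.20 CPM for UCHL5 (adjusted p = 0.951; SD, n = 3 each). UBB, which encodes a ubiquitin chain, was at 639, 694 and 660.2 CPM and then 611, 589 and 566 CPM, below the control in all libraries, and passed with the block and not without it (log2 fold change −0.18, adjusted p = 0.211, and 0.0387 with the block).

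Fewer than 7 genes of this list were called when 1 library was left out. Only 1, MAFG, was called without control replicate 1 or without 6j replicate 2. The number was 2 without control replicate 3, 3 without control replicate 2, 5 without 6j replicate 1 and 6 without 6j replicate 3. The share of all rows called in these fits was not counted.

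**Figure D4:**
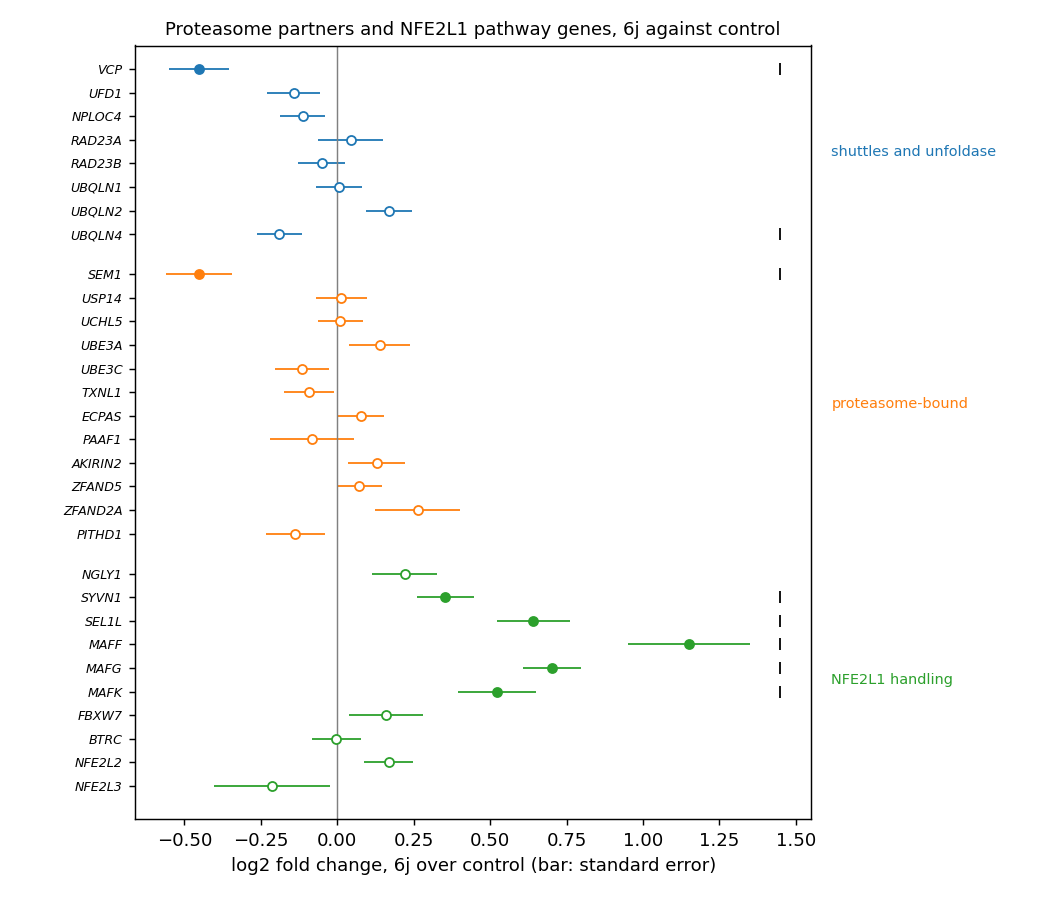
Log2 fold change (6j over control, x axis) of the genes of the ubiquitin and NFE2L1 list other than those that encode ubiquitin, by class, with the standard error as a bar; filled points passed an adjusted p of 0.05 in edgeR and ticks at the right mark those that passed with the replicate block. MAFF, MAFG, SEL1L, MAFK and SYVN1 lie to the right of 0 and VCP and SEM1 at −0.45.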

How the data were processed

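Polyadenylated RNA of 3 control and 3 6j libraries was sequenced by the authors' contractor. The values deposited are raw whole-number counts for each gene, and the submitters' processing notes name HISAT2, StringTie and GRCh38 without versions. The counting program, strand setting and annotation are not given in the sources used here. In each library fewer rows held 1 count (142 to 175) than 2 counts (557 to 692), and whether the counts are rounded estimates is not given. Total counts ran from 31533403 to 38018349 per library, and each core or cap subunit tested had at least 1838 counts in every library. A count of 0 was read as up to 3 counts (0.0781 to 0.0952 CPM), for counting error only. No column was left out.

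Members were matched by symbol, and coordinates, transcript lengths and exon overlaps came from GENCODE 29, in which all 19974 Ensembl identifiers were found. The table also holds 5471 assembled new genes, which could share reads with members. Processed pseudogenes of subunits could do so as well. TMM factors, filterByExpr (15957 of 25445 rows kept) and robust quasi-likelihood tests were run in edgeR 4.0.16 (R 4.3.3) on the whole table, with Benjamini-Hochberg adjustment over all rows. Log2 CPM used a prior count of 2, and standard errors came from the F statistic. The thresholds were an adjusted p of 0.05 and, where stated, a 1.5-fold change. DESeq2 1.42.0, other normalizations and filters, a replicate block and leaving out each library were alternatives.

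Libraries of the same number deviated from their group means together (correlations 0.171, 0.180 and 0.312 over 15957 rows, against −0.231 to 0.0795 for different numbers), so the numbers were taken to pair the libraries. What a number marks is not given in the labels, and the study names no covariate. The main fit therefore had no block, and the block was an alternative. The fits that left out a library had no block either, so they do not use the pairing.

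In simulated data of 15648 genes for the comparison of 6j with control, edgeR recovered 19 of 100 genes changed 1.5-fold and 60 of 100 changed 2-fold, with 7 false calls. The changed genes were drawn from all rows tested, whatever their level. Named in full were NFE2L1, DDI2, POMP, the catalytic subunits, every member called and, in each class, the 3 members with the smallest and the 1 with the largest p. Members, lists and tests were chosen with earlier results of these data known. Promoter windows were RefSeq's (GRCh38.p14), searched on both strands. Some genes of the ubiquitin and NFE2L1 list are counted but not reported here by their values.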

Additional observations from a re-analysis of the deposited data

How the results depend on the processing

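All alternatives gave a log2 fold change below 0 for the 32 core and cap subunits tested, 31 of which had groups that did not overlap. The median of all rows moved by at most 0.00714. Of the 39 members named in full, the call or its absence was kept by all 39 under RLE and upper-quartile normalization, by 38 without the filter, by 37 with Ensembl genes only, by 35 under DESeq2 and by 31 with the replicate block, where DESeq2 gained 4 calls and the block 8. The replicate block raised the members called lower from 21 to 37 and the ubiquitin and NFE2L1 genes called from 7 to 11. With 1 library left out, the members called lower ranged from 2 to 19, those called higher from 0 to 1, those past 1.5-fold from 0 to 2 and the ubiquitin and NFE2L1 genes called from 1 to 6; these fits hold fewer samples. The 2 members past 1.5-fold, PSMB3 and NFE2L1, stand at the threshold, and their number became 4 under DESeq2 and 1 with Ensembl genes only, without the filter or under upper-quartile normalization. With the replicate block it was 3, PSMB3, PSMB10 and PSME2, and NFE2L1 lay just under the fold threshold (log2 fold change 0.58). It became 22 with a 1.2-fold threshold or none. Directions turned for values near 0 or of high spread when 1 library was left out. PSMB8 ranged from −0.87 to 0.17, DDI2 from −0.0095 to 0.31, PSME4 from −0.086 to 0.023 and PSMC3IP from −0.048 to 0.13. Of simulated 1.5-fold changes edgeR recovered 19 of 100, so changes of this size can be missed with 3 libraries per group.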
